A study of Rattus norvegicus with 24 samples.

Results

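A set of 10 activity-regulated immediate early genes were followed in the perilesional cortex and the ipsilateral thalamus after traumatic brain injury (TBI). The set held the AP-1 genes Fos, Fosb and Junb, the zinc finger genes Egr1, Egr2 and Egr4, the transcription factor genes Npas4 and Nr4a1, and the synaptic genes Arc and Plk2. Members were taken by name from the deposited annotation, where each of the 10 names belonged to exactly 1 locus, 10 of 42334 loci in all and of 26641 with a gene name. The libraries came from 12 adult male Sprague-Dawley rats, 6 with lateral fluid-percussion injury (TBI) and 6 sham-operated controls, with 1 cortical and 1 thalamic library per rat, 24 in all, sampled 3 months after surgery. TBI animals received a pressure pulse onto the left parietal dura through a craniectomy, whereas sham-operated controls had the anaesthesia and the craniectomy without the pulse, so that both groups share the surgery. According to the study's methods, magnetic resonance imaging was used to pick out TBI rats with a chronically inflamed rim around the lesion, and all rats were decapitated under isoflurane before the tissue was cut on ice. The TBI group therefore stands for rats with such a rim. Rats are named by their number in the labels: sham rats 26, 32, 34, 38, 50 and 55, and TBI rats 22, 24, 45, 52, 56 and 63.

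Immediate early genes are the first genes that a neuron transcribes after strong synaptic input, calcium entry or a growth factor. Their transcription needs no new protein, since the factors that switch them on, such as CREB and SRF, already sit at their promoters and are activated by kinases. Their messages appear within minutes and decay quickly, and they have long been used as a marker of which brain regions were recently active. Most encode transcription factors that set off a later wave of genes, whereas Arc and Plk2 act directly at synapses.

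Values are normalized counts, made by the authors from the number of fragments per locus and scaled for sequencing depth with 1 factor per library. Libraries held 30568928 to 54608916 fragments, and 3 fragments, the floor used here, were worth 2.06 to 3.76 normalized counts. The tissue labels were checked with marker genes. The summed level of 6 cortex identity genes was 15598 to 21410 in cortical and 2465 to 4039 in thalamic libraries, and that of 4 thalamus identity genes was 16978 to 30162 in thalamic and 1447 to 2147 in cortical libraries, so neither list overlapped between the regions. Choroid plexus markers reached 258298 in the thalamic library of TBI rat 45 against a median of 1486 in TBI thalamus, and the highest library of the other groups lay between 23389 and 106672.

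Promoters of 8 of the 10 genes were found in RefSeq (rat assembly GRCr8), from 250 bases before to 50 bases after the annotated start, while Fos and Arc were not among them. The 4 printed here show the elements through which immediate early genes are classically switched on, and are written 5′ to 3′ on the strand of the gene. Capitals mark the full cAMP response element TGACGTCA, to which CREB binds, its core CGTCA, and the CArG box, to which SRF binds, each on either strand. A full element always contains the core on both strands. The promoters lay at chr18:26736828-26737127 on the plus strand (Egr1), chr20:21054392-21054691 on the minus strand (Egr2), chr2:43702286-43702585 on the plus strand (Plk2) and chr7:134259888-134260187 on the plus strand (Nr4a1).
Egr1: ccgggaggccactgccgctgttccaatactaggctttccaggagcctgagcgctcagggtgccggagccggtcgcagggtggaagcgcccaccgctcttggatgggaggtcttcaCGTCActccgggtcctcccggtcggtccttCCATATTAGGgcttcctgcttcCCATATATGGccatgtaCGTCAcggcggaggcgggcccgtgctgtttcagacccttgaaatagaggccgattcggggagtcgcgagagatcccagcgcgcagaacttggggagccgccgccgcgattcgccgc
Egr2: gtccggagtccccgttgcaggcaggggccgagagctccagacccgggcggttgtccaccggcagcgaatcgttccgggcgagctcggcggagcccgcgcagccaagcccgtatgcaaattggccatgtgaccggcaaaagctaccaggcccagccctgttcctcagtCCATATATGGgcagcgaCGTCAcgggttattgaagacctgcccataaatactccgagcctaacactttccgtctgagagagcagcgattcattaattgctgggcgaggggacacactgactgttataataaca
Plk2: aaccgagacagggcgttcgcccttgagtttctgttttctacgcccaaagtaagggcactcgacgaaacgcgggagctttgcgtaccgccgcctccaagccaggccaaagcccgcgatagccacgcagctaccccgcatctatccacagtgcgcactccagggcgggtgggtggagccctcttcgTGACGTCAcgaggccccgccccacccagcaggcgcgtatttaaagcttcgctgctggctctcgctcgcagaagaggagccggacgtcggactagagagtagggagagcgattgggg
Nr4a1: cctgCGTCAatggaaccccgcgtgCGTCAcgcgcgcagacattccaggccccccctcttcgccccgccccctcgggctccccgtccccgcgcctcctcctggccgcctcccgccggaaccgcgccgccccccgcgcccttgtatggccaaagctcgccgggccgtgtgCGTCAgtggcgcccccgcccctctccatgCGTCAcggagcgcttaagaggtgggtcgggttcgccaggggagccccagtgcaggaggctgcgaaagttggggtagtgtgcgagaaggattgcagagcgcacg
The core CGTCA stood in 6 of the 8 promoters, Junb and Egr4 in addition to the 4 printed, and in 21.2% of the 33469 promoters of the same length in the table. Nr4a1 had 4 copies. A CArG box stood in 2 of the 8, Egr1 with 2 copies and Egr2 with 1, against 1.64% of all promoters. In both genes a CArG box covered positions -83 to -74 and a core positions -66 to -62 from the start. The full element stood in Plk2 alone, against 1.83% of all promoters. The letters TATAAA, sought on either strand, stood in Fosb and Junb, against 14.2%. They covered positions -49 to -44 in Junb, and in Fosb positions -180 to -175 on the opposite strand. None of these letters occurred in the Npas4 promoter. These matches describe sequence only, as no binding was measured.

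Whether injury altered the 10 genes in the perilesional cortex was examined first. Egr1, Npas4 and Plk2 were lower in TBI than in sham-operated rats, and none of the 10 was called higher. An estimate below 0 was found for 9 of the 10, and for 8031 of the 15493 loci tested. TBI and sham were compared for each gene by limma on log2(normalized count + 1), with adjustment over all 15493 loci tested and a threshold of 0.05 on the adjusted p. By this rule 3 of 10 genes were lower, while 14.9% of all loci were called lower and 14.3% higher. The median log2 change of the 10 was -0.59, and that of all loci tested was -0.01.

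Among the AP-1 genes none passed the test in cortex. Fos, the partner of JUN proteins in the AP-1 dimer, ranged in sham rats from 629 over a median of 1997 to 2213 normalized counts, and in TBI rats from 548 over 1075 to 1826. Sham rats 26 and 32 lay far under the other 4 sham rats and within the TBI range, so the groups overlapped. The log2 change of Fos was -0.55 (SE 0.31, adjusted p = 0.201). Fosb, whose splice product delta-FosB accumulates with repeated stimulation, went from 408 over 565 to 788 in sham and from 415.5 over 604 to 790.1 in TBI rats, which is the same range, with a log2 change of 0.04 (SE 0.19). Junb, an AP-1 partner that can restrain JUN, ranged from 584.5 over 1152 to 1345 in sham and from 445 over 836 to 1246 in TBI rats, with a log2 change of -0.27 (SE 0.25, adjusted p = 0.45).

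Egr1 was the EGR gene that fell. It encodes the zinc finger factor also known as Zif268, which is tied to synaptic plasticity and memory. Sham rats ranged from 7008 over a median of 11768 to 13747 and TBI rats from 4430 over 6729 to 9331. Of the 6 TBI rats, 4 lay below every sham rat, and the other two, rats 45 and 52, lay within the lower end of the sham range. The log2 change was -0.67 (SE 0.18, 95% interval -1.05 to -0.29, adjusted p = 0.011). Egr2, known besides its activity response for the myelination programme of Schwann cells, ranged from 220.4 over 709.9 to 877 in sham and from 140.5 over 358 to 615 in TBI rats, a log2 change of -0.68 with a wide error (SE 0.37, adjusted p = 0.185). Egr4, an EGR factor found mainly in neurons, ranged from 213 over 435 to 606 in sham and from 196 over 394 to 489 in TBI rats and differed by -0.17 (SE 0.25, adjusted p = 0.644).

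Npas4 encodes a factor that neurons induce in response to calcium entry and that shapes inhibitory synapses. Its 6 sham rats ranged from 556.5 over 942 to 1291 and its TBI rats from 339 over 407 to 858, and 4 of the 6 TBI rats lay below every sham rat. The log2 change was -0.92 (SE 0.24, adjusted p = 0.0115), which ranked 33 among the falls of all 15493 loci. Nr4a1, an orphan nuclear receptor, ranged from 1373 over 3589 to 5065 in sham and from 1032 over 2529 to 3238 in TBI rats, with a log2 change of -0.63 (SE 0.31, adjusted p = 0.139).

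The synaptic genes gave a large change that did not pass and a small change that did. Arc encodes the protein that drives the removal of AMPA receptors from synapses. In sham cortex 5 rats lay between 8793 and 11761, and rat 32 stood alone at 2529. In TBI cortex the values ran from 1618 over 5263 to 8569, so all 6 TBI rats lay below those 5 sham rats and all but rat 63 above rat 32. The log2 change of Arc was -0.93 (SE 0.40, 95% interval -1.79 to -0.07, adjusted p = 0.0959). Plk2, a kinase that weakens synapses after sustained activity, varied little, from 7447 over 8626 to 8945 in sham and from 6356 over 7290 to 8303 in TBI rats. Its log2 change was -0.23 (SE 0.07, adjusted p = 0.0212), with 3 of the 6 TBI rats below every sham rat.

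No gene of the set had groups free of overlap in cortex, which 5.45% of all loci did in the lower direction. The count of 3 changed with single libraries, although Egr1 and Npas4 passed without any 1 library (adjusted p at most 0.0294 and 0.0292 by limma). Without sham rat 32, Fos (-0.81, adjusted p = 0.0297), Egr2 (-0.95, adjusted p = 0.0443), Nr4a1 (-0.88, adjusted p = 0.018) and Arc (-1.27, adjusted p = 0.00949) passed as well and 7 of 10 genes were called lower, whereas Plk2 missed the threshold without TBI rat 22 (adjusted p = 0.0506) or TBI rat 52 (adjusted p = 0.0503). Between the groups, neuron markers also fell: 5 of 8 were lower in TBI cortex, none at 0. Their summed level was 166122 to 234052 in TBI against 252437 to 268491 in sham rats. Of 9 microglia markers, 8 were higher, with a sum of 21544 to 23733 in TBI against 15605 to 16582 in sham rats. Their part in the result was not tested, and in bulk tissue fewer cells of a type and less RNA per cell cannot be told apart.

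**Figure D1:**
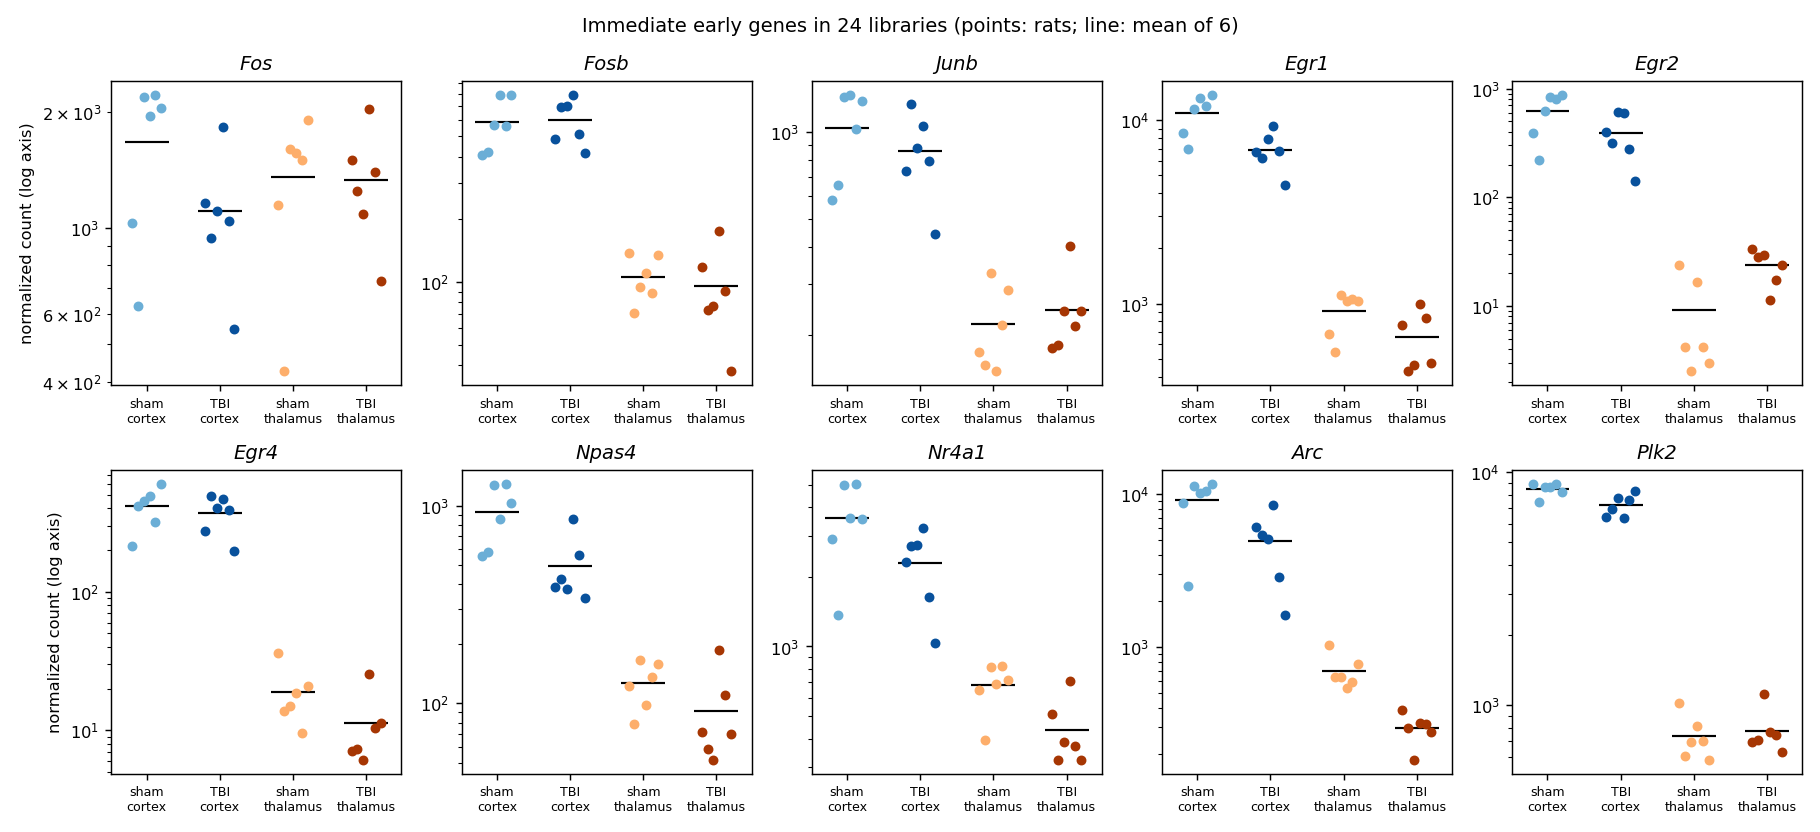
Normalized counts of the 10 immediate early genes, 1 panel per gene, on log axes that differ between panels. Points are the 6 rats of each group and lines the group means; Fos is the only gene whose thalamic points lie at the height of its cortical points, and the sham cortex point of Arc at 2529 stands apart from the other 5.

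Other members of the set passed the test in the thalamus. Arc and Nr4a1 were lower and Egr2 was higher in TBI rats, while the remaining 7 genes did not pass the test. Thus 2 of 10 were lower and 1 higher, beside 20.9% and 14.5% of the 15564 loci tested. The split over all loci, 3257 lower and 2259 higher, became 2433 and 2635 with upper quartile scaling and 2300 and 2822 with an edgeR count test, while the same 3 members were called. The median log2 change of the 10 was -0.38, and that of all loci -0.02.

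Arc was the only member whose TBI and sham groups did not overlap. Sham rats ranged from 547 over a median of 639 to 1042 normalized counts and TBI rats from 184 over 307 to 389. Every TBI rat lay below every sham rat, as in 10.7% of all loci. The log2 change was -1.24 (SE 0.18, 95% interval -1.62 to -0.87, adjusted p = 0.000112), and it remained past the threshold without any 1 library, from -1.33 to -1.11. Plk2, the other synaptic gene, ranged from 582 over 696 to 1024 in sham and from 629 over 727 to 1119 in TBI thalamus, a log2 change of 0.08 (SE 0.15, adjusted p = 0.722). The highest TBI value came from rat 45, whose library also held the highest choroid plexus signal. The sign of Plk2 turned without that library (-0.03). Sham thalamus rats 34 and 50, with choroid plexus sums of 67339.5 and 106672, had Plk2 at 693.6 and 698.7. The highest sham value, 1024 in rat 26, came with a sum of 1243. The part of choroid plexus in Plk2 was not tested.

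Egr2 rose from a very low level. The sham rats had 23.9, 4.2, 2.5, 16.6, 4.2 and 3.0 normalized counts (rats 26, 32, 34, 38, 50 and 55), and 2 of these 6 libraries were at or under the floor of 3 fragments. The TBI rats had 33.5, 28.1, 29.5, 11.3, 17.2 and 23.8 (rats 22, 24, 45, 52, 56 and 63). There were 3 TBI rats that exceeded every sham rat, and sham rats 26 and 38 lay within the TBI range. The log2 change was 1.67 (SE 0.48, 95% interval 0.63 to 2.70, adjusted p = 0.0155), and with an edgeR count test on recovered fragments it was 1.40 (adjusted p = 0.0435). Egr2 entered this test through its TBI libraries, since the sham mean of 9.07 lay under the minimum of 10. Microglia markers moved in the same direction, with all 9 higher. Their sum was 33060 to 41892 in TBI against 16606 to 21336 in sham thalamus. Of 7 astrocyte markers, 4 were higher and 0 lower, with a sum of 321203 to 373640 in TBI against 228844 to 243201 in sham thalamus. Of 7 endothelial markers, 3 were higher and 0 lower. The part of these cell types in the rise of Egr2 was not tested. Cortex identity genes, which would mark cortical tissue in a thalamic sample, summed to 2465 to 3099 in TBI and 3075 to 4039 in sham thalamus, so they were not higher where Egr2 was higher.

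The other EGR genes pointed down without passing. Egr1 ranged from 543.5 over 1034 to 1108 in sham and from 428 over 620.5 to 992.5 in TBI thalamus (log2 change -0.50, SE 0.23, adjusted p = 0.115). Egr4 was low, from 9.5 over 16.9 to 36.3 in sham and from 6.1 over 8.8 to 25.4 in TBI rats (log2 change -0.75, SE 0.36, adjusted p = 0.124). In both genes TBI rat 52 stood high within its group.

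Nr4a1 ranged from 393 over 703.5 to 825 in sham and from 323 over 379.5 to 707 in TBI thalamus. There were 4 TBI rats below every sham rat, while rats 22 and 52 lay within the sham range. The log2 change was -0.66 (SE 0.21, adjusted p = 0.0228). Npas4 ranged from 78.6 over 129 to 165 and from 51.8 over 71.2 to 187 in the same order (log2 change -0.56, SE 0.28, adjusted p = 0.141), again with 4 TBI rats below every sham rat and rat 52 above them all.

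None of the AP-1 genes passed the test in thalamus. Fos ranged from 426 over 1532 to 1908 in sham and from 728 over 1323 to 2034 in TBI rats, with a log2 change of 0.04 (SE 0.32, 95% interval -0.64 to 0.73). The interval leaves room for a change of either sign. Fosb ranged from 71.1 over 103 to 138 in sham and from 37.4 over 84.0 to 176 in TBI rats (log2 change -0.27, SE 0.29, adjusted p = 0.517). Junb ranged from 149 over 196 to 327 and from 179.6 over 227 to 404 (log2 change 0.17, SE 0.22, adjusted p = 0.603).

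Single libraries carried part of the thalamic count as well. Without TBI rat 52, Egr1 (-0.63, adjusted p = 0.0435), Egr4 (adjusted p = 0.0284) and Npas4 (-0.79, adjusted p = 0.0146) were also lower and 6 of 10 genes were called; without sham rat 32, Egr1 passed (-0.63, adjusted p = 0.0389); and Nr4a1 missed the threshold without sham rat 50, TBI rat 24 or TBI rat 63 (adjusted p 0.0529 to 0.0535) and with all 24 libraries in 1 fit (0.0729). Neuron markers were lower here too, 7 of 8, none at 0, with a sum of 111702 to 144251 in TBI against 175170 to 209800 in sham thalamus, and their part was not tested.

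**Figure D2:**
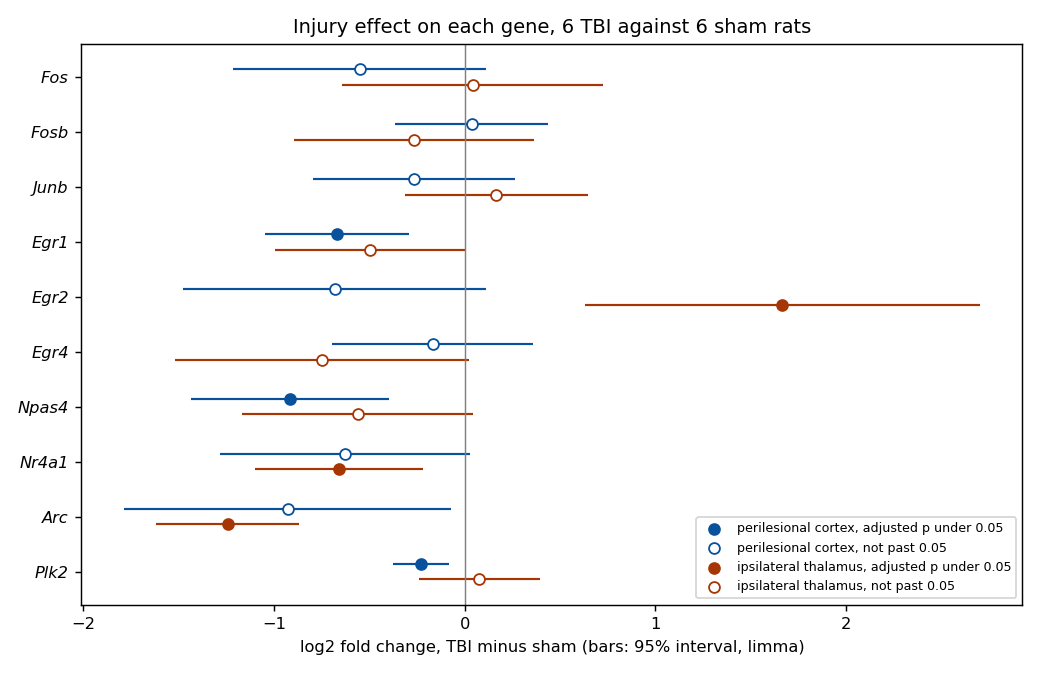
Log2 fold change of TBI against sham for each gene, in perilesional cortex (blue) and ipsilateral thalamus (brown), with 95% intervals from limma and 6 rats per group. Filled points passed the adjusted threshold of 0.05: Egr1, Npas4 and Plk2 in cortex at -0.67, -0.92 and -0.23, and Egr2, Nr4a1 and Arc in thalamus at 1.67, -0.66 and -1.24.

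A gene called in only 1 region need not respond differently in the regions, so the difference itself was tested as the TBI effect in thalamus minus that in cortex over all 24 libraries. Egr2 alone passed, with a difference of 2.35 on the log2 scale (SE 0.64, adjusted p = 0.0259), beside 2.72% of 15678 loci called in that direction and 4.54% in the other (427 and 711 loci, which became 566 and 524 with edgeR). The call was lost without the sham thalamus library of rat 55 (2.17, adjusted p = 0.0526) and with edgeR (2.02, adjusted p = 0.0657). For Arc, Egr1, Npas4, Nr4a1 and Plk2, each called in a single region, the difference did not pass: it was -0.31 (SE 0.48), 0.18 (SE 0.32), 0.36 (SE 0.40), -0.03 (SE 0.41) and 0.31 (SE 0.17) in that order.

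Both regions came from the same rats, so the same difference was also taken within each rat, in a fit chosen after the data had been seen. There Fos passed (0.59, SE 0.12, adjusted p = 0.00903) together with Egr2 (2.35, SE 0.62, adjusted p = 0.0295), 2 genes instead of 1, beside 3.21% of loci called in that direction. Fos did not pass without the block (SE 0.49, adjusted p = 0.512), with the rat as a block estimated as a correlation of 0.135, or with edgeR. The within-rat call of Egr2 was lost without any 1 of 7 of the 12 rats (22, 24, 34, 50, 55, 56 and 63), and its adjusted p ran from 0.00703 to 0.0727 over the left-out rats. Fos in the sham rats 26, 32, 34, 38, 50 and 55 was 1029, 629, 2185, 1948, 2213 and 2046 in cortex and 1149, 426, 1604, 1562, 1502 and 1908 in thalamus. In the TBI rats 22, 24, 45, 52, 56 and 63 it was 1159, 941, 1108, 1826, 1043 and 548 in cortex and 1504, 1246, 1084, 2034, 1399 and 728 in thalamus.
Thus 5 of 6 TBI rats, and 1 of 6 sham rats, had more Fos in thalamus than in cortex. The thalamic level was 97.9% to 134% of the cortical level in TBI rats (median 131%) and 67.7% to 112% in sham rats (median 76.8%), and the ranges overlapped through sham rat 26, which lay above TBI rats 45 and 52. Leaving out any 1 rat kept the within-rat estimate of Fos between 0.54 and 0.69 with an adjusted p of 0.00226 to 0.0253. The spread of Fos between rats was large in each region and was shared by both regions of a rat, which is what the within-rat difference removes.

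**Figure D3:**
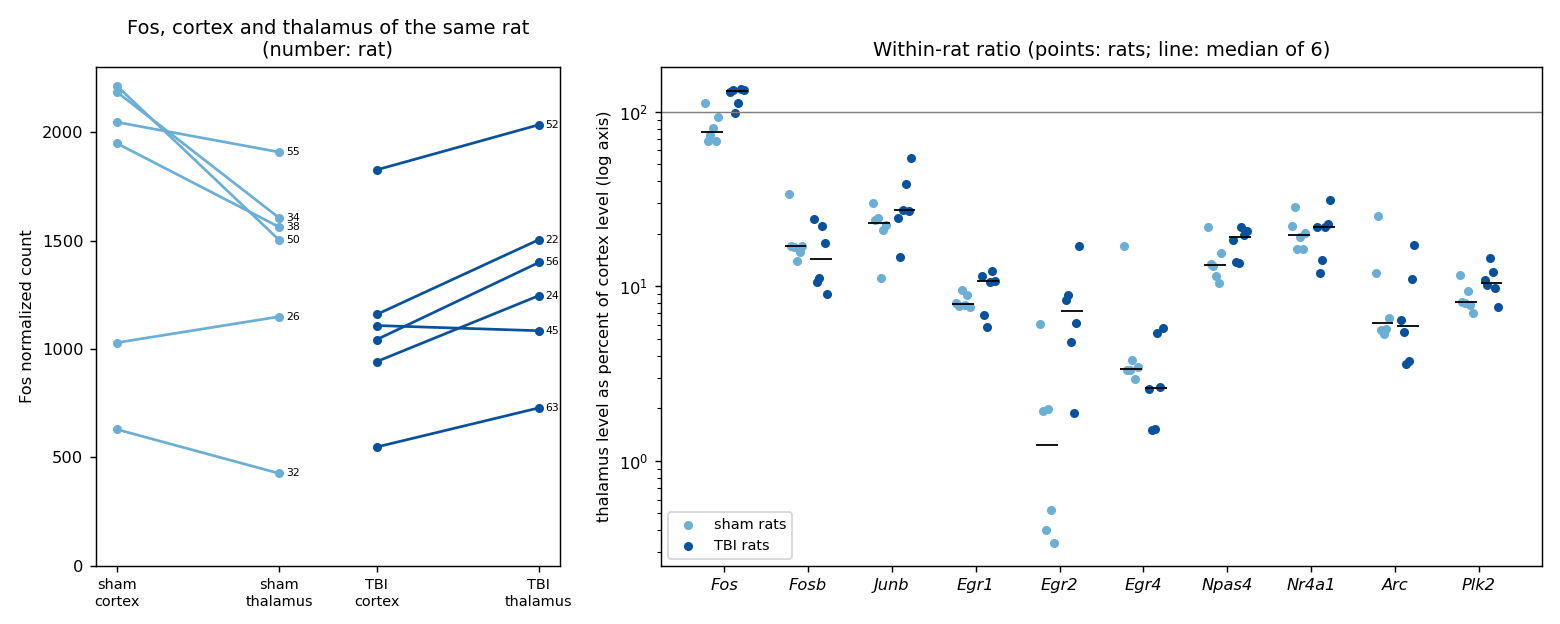
Left, Fos normalized counts in cortex and thalamus, joined for each rat, on an axis from 0; lines rise in 5 of 6 TBI rats and in 1 of 6 sham rats. Right, the thalamic level as a percent of the cortical level of the same rat for all 10 genes on a log axis, with 6 sham and 6 TBI rats per gene and the median as a line; Fos lies around 100% and the other genes below 60%.

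The difference between regions was larger than the injury effect in either region for 9 of the 10 genes. In sham rats 9 of the 10 genes were lower in thalamus than in cortex with no overlap between the 6 and 6 libraries, and Fos was the exception. Among the 15582 loci tested, 28.3% were called lower in thalamus and 19.2% were lower without overlap. Egr2 and Egr4 differed most, by -6.25 (SE 0.49) and -4.43 (SE 0.28) on the log2 scale. In sham thalamus 2 of 6 libraries were at or under 3 fragments of Egr2, and its difference ran from -6.6 to -5.55 over the alternative settings. Egr1, Arc and Plk2 lay close together, at -3.60 (SE 0.19), -3.58 (SE 0.31) and -3.54 (SE 0.11). Thalamic Plk2 was 7.07% to 11.5% of the cortical level of the same rat. Npas4 (-2.84, SE 0.23), Fosb (-2.45, SE 0.19), Nr4a1 (-2.32, SE 0.27) and Junb (-2.23, SE 0.24) followed. The adjusted p of these 9 was at most 1.67e-06.

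In TBI rats the same 9 genes were lower in thalamus, again without overlap, beside 26.5% of 15737 loci called lower and 16.5% lower without overlap. Log2 differences ran from -5.01 (SE 0.31) for Egr4 to -1.80 (SE 0.23) for Junb. Egr2 and Arc both stood at -3.90 (SE 0.34 and 0.32), and Egr1 at -3.43 (SE 0.22). This comparison and the sham one use the same libraries as the injury comparisons and are not independent of them.

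Fos was the only member present at a like level in both regions. The difference was -0.30 (SE 0.36, adjusted p = 0.486) in sham and 0.29 (SE 0.26, adjusted p = 0.361) in TBI rats. With the rat as a block it passed in both, lower in thalamus in sham rats (-0.30, SE 0.09, adjusted p = 0.0146) and higher in TBI rats (0.29, SE 0.07, adjusted p = 0.00539), while the calls of the other 9 genes did not change. Without the thalamic library of sham rat 32 the unblocked sham estimate was 0.00.

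The genes varied widely between rats of the same group. The SD of log2 values within a group was larger than that of 83.6% to 99.2% of the 15678 loci for the 9 genes other than Plk2, counting each gene in each group. The 99.2% was that of Egr2 in sham thalamus, where 2 of 6 libraries were at or under the floor of 3 fragments. Counting error was not separated from variation between rats. In sham cortex the SD was 0.85 for Arc, 0.79 for Egr2 and 0.75 for Fos, beside a median of 0.13 over all loci. Plk2 in cortex was unlike them, with an SD of 0.10 in sham and 0.15 in TBI rats, smaller than or close to that of the median locus (0.13 and 0.15).

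Much of this spread was common to the genes. In cortex the pairwise correlation of deviations from the group mean, over 12 libraries, had a median of 0.723 over 45 pairs, from -0.436 to 0.967. Plk2 had negative values with all 9 other genes there, from -0.436 to -0.082. In thalamus the median was 0.307, with Egr2 at a median of -0.134 against the others. Both genes of a pair were measured in the same libraries, so the handling and depth of each library were common to the pair. No test was made of these correlations.

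Single rats stood out, not always alike in both regions. Sham rat 26 was the lowest of its group for 4 of 10 genes in cortex but the highest for 5 in thalamus. Sham rat 32 was the lowest of its group for 6 of 10 genes in cortex and 5 in thalamus. In both of its regions 9 of the 10 genes lay under the group mean. Its neuron marker sum was the lowest of the sham group in cortex, at 252437, and inside the sham range in thalamus, at 184054. TBI rat 63 was the lowest for 9 genes in cortex, Plk2 being the exception, where it was the highest. Its neuron marker sum, 234052, was the highest of the 6 TBI cortex libraries. TBI rat 52 was the highest for 6 genes in cortex and 7 in thalamus, and 8 of the 10 genes lay above the mean in both of its regions. Its neuron marker sums, 203967 and 141093, lay inside the range of the TBI group. The part of neuron content in the levels of these rats was not tested.

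**Figure D4:**
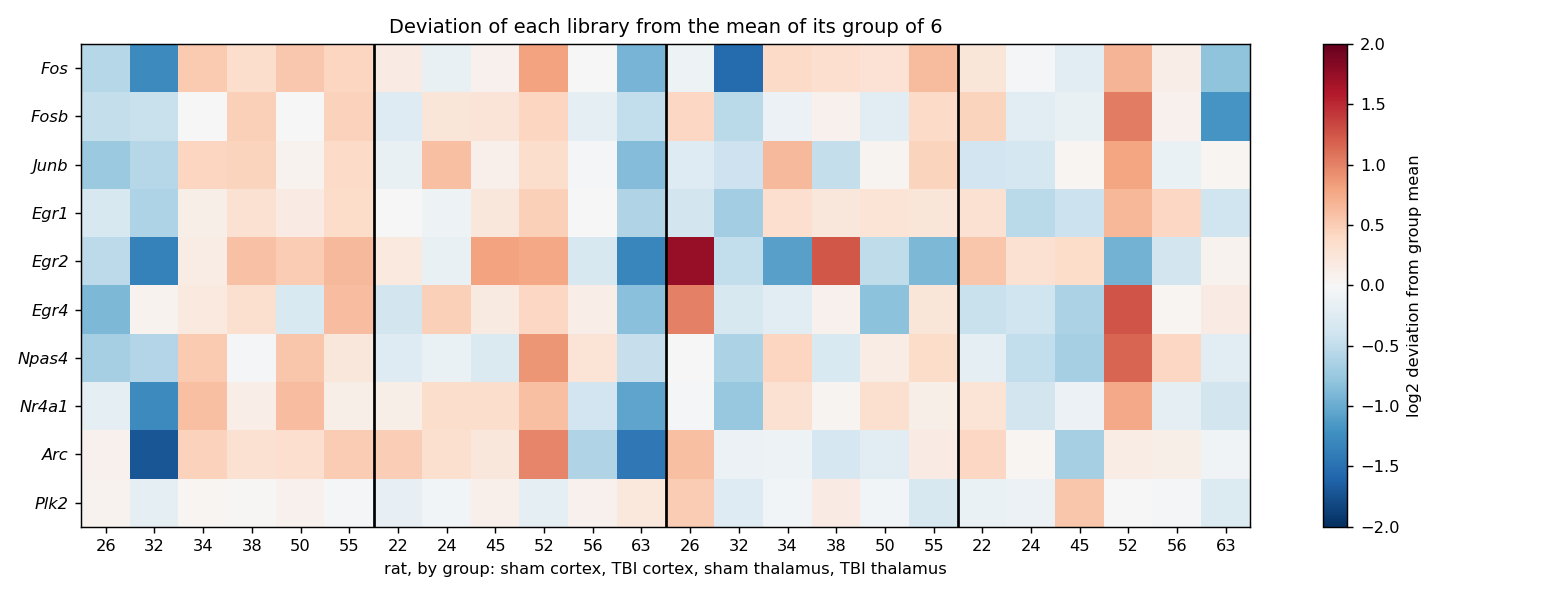
Log2 deviation of each gene in each library from the mean of its group, by rat, with black lines between the groups (red, above the mean; blue, below). The columns of sham rat 32 in both regions and of TBI rat 63 in cortex are blue for most genes, the columns of TBI rat 52 are red for most genes but blue for Egr2 in thalamus, and Plk2 stays pale in cortex.

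The regions of a rat moved together for some members. Over the 12 rats, the correlation between cortical and thalamic deviations was 0.933 for Fos (Spearman 0.909), 0.809 for Npas4 (0.72), 0.78 for Nr4a1 (0.769) and 0.73 for Egr1 (0.545), and each of these lay above that of 95% of loci, whose median was 0.143. It was 0.109 for Arc (Spearman 0.308), -0.088 for Egr4 (0.14) and -0.117 for Egr2 (-0.147). These values are descriptive, as the points share an animal and its dissection.

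Related genes of the same response were examined by lists. Of 16 other immediate early transcription factors, 1 was higher and 2 were lower in TBI cortex, and 4 were higher and 0 lower in TBI thalamus. For these and the lists that follow, 14.3% of all loci were called higher and 14.9% lower in cortex, and 14.5% higher and 20.9% lower in thalamus. Atf3, a stress-induced factor of the ATF family, rose in both regions. The rise was 1.05 (SE 0.33, adjusted p = 0.0253) in cortex and 1.33 (SE 0.14, adjusted p = 7.67e-06) in thalamus. Its thalamic normalized counts were 99.8 to 145.3 in TBI against 36.1 to 57.8 in sham rats. Maff, a small MAF factor, rose in thalamus by 1.06 (SE 0.29, adjusted p = 0.0103). Fosl2, an AP-1 gene, and Ier5 changed in opposite directions: Fosl2 by -0.32 in cortex (adjusted p = 0.0448) and 0.47 in thalamus (adjusted p = 0.0306), and Ier5 by -0.36 (adjusted p = 0.033) and 0.36 (adjusted p = 0.02). For both the difference between regions passed, at 0.79 (SE 0.20, adjusted p = 0.0179) and 0.72 (SE 0.17, adjusted p = 0.0107). The list's median log2 change was -0.21 in cortex and 0.14 in thalamus.

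Among 20 signalling and feedback genes of the immediate early response, of which 19 were tested, 7 were lower and 2 higher in cortex and 3 lower and 1 higher in thalamus. Among the genes called, the largest falls in cortex were those of Trib1, a pseudokinase (-0.64, SE 0.21, adjusted p = 0.0315), and Dusp5, a phosphatase of ERK (-0.44, SE 0.13, adjusted p = 0.0205). Among the genes called in thalamus, Dusp4, a phosphatase of the same family (-0.51, SE 0.09, adjusted p = 0.000742), and Homer1, a scaffold of metabotropic glutamate receptors (-0.44, SE 0.10, adjusted p = 0.00462), fell most. Zfp36, which speeds the decay of inflammatory messages, rose in cortex (0.69, SE 0.18, adjusted p = 0.00908) and in thalamus (0.84, SE 0.12, adjusted p = 0.000102). Ier3 rose in cortex (0.45, SE 0.12, adjusted p = 0.0137). The list's median was -0.26 in cortex and -0.18 in thalamus.

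Of 9 later activity-regulated genes, which follow the immediate early factors and encode secreted and synaptic proteins, 4 were lower and 0 higher in cortex, and 3 were lower and 2 higher in thalamus. Nrn1, a neuritin that promotes neurite growth, fell in cortex by 0.58 on the log2 scale (SE 0.06, adjusted p = 2.35e-05). In thalamus it fell by 0.40 (SE 0.07, adjusted p = 0.000623). Its groups did not overlap in either region, as for 5.45% of all loci in cortex and 10.7% in thalamus in the lower direction. Vgf, a neuropeptide precursor, fell in thalamus (-0.45, SE 0.11, adjusted p = 0.0072). Pcsk1, a convertase that cuts neuropeptide precursors, was lower in cortex (-0.50, SE 0.16, adjusted p = 0.0305) and higher in thalamus (0.51, SE 0.14, adjusted p = 0.0109), and the difference passed (1.01, SE 0.23, adjusted p = 0.00765). Scg2, a granin of secretory vesicles, was higher in thalamus (0.28, SE 0.07, adjusted p = 0.00441). Besides Pcsk1, the difference between regions passed for Scg2 (0.39, SE 0.10, adjusted p = 0.0205) and for Bdnf, a neurotrophin (0.56, SE 0.17, adjusted p = 0.0428), which was lower in cortex (-0.49, SE 0.12) and did not pass in thalamus (0.06, SE 0.11).

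Of 17 upstream factors and kinases, 6 were lower and 1 higher in cortex and 8 were lower and 2 higher in thalamus. Camk4, a nuclear calcium-dependent kinase that phosphorylates CREB, fell by 0.54 in cortex (SE 0.07, adjusted p = 5.12e-05). In thalamus it fell by 0.64 (SE 0.14, adjusted p = 0.00277). Both falls were without overlap, beside the same 5.45% and 10.7% of all loci. Ppp3ca, the catalytic subunit of calcineurin, fell by 0.36 (SE 0.10, adjusted p = 0.0144) and by 0.53 (SE 0.10, adjusted p = 0.00113). Mapk3, which encodes ERK1, rose in cortex (0.45, SE 0.05, adjusted p = 4.6e-05) and in thalamus (0.16, SE 0.05, adjusted p = 0.0183), and Elk4, an SRF partner, rose in thalamus (0.21, SE 0.07, adjusted p = 0.0276). The changes of Creb1 itself (-0.13, SE 0.11 in cortex and 0.06, SE 0.10 in thalamus) and of Srf (0.02, SE 0.08 and -0.10, SE 0.06) did not pass in either region.

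**Figure D5:**
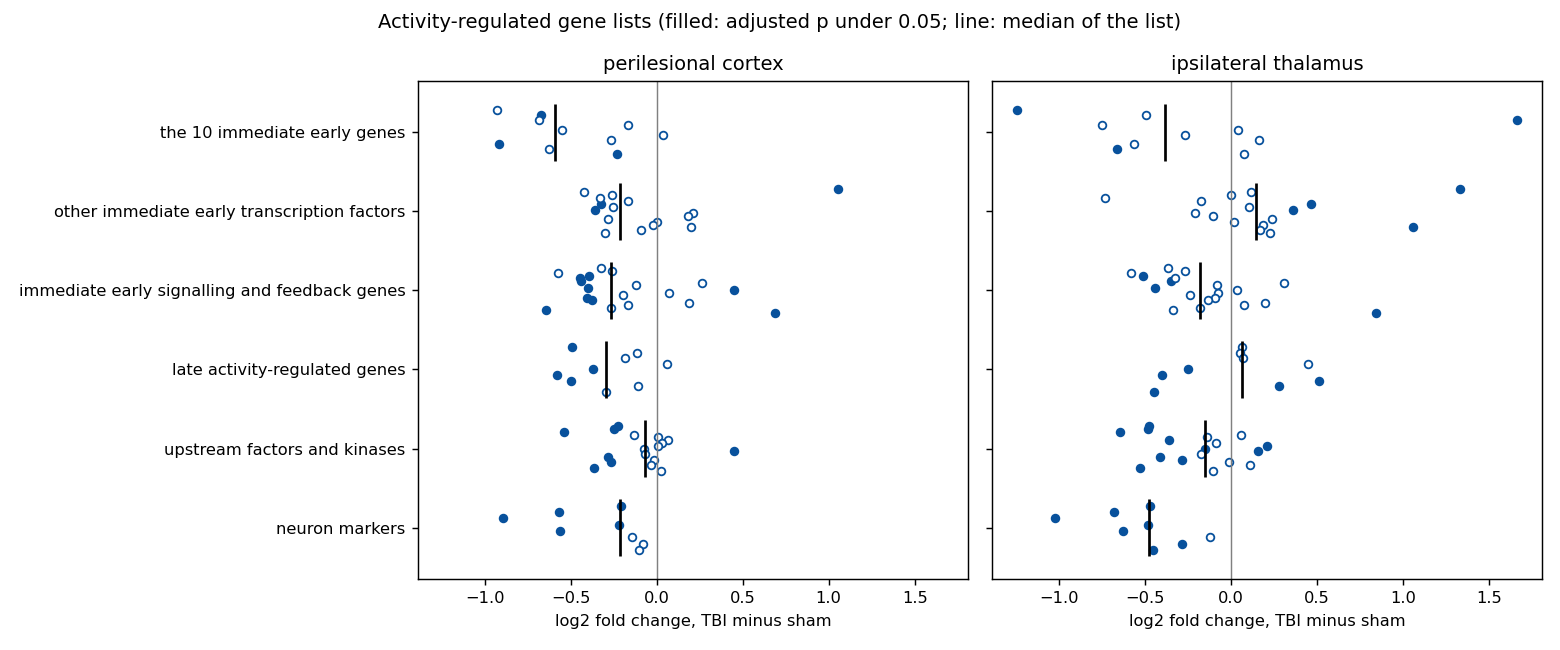
Log2 fold change of TBI against sham in each region for the 10 genes and for the lists of related genes and neuron markers, 1 point per gene, filled where the adjusted p was under 0.05, with the median of each list as a line. The 10 genes have medians of -0.59 in cortex and -0.38 in thalamus, neuron markers -0.21 and -0.48.

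The loci whose deviations from the group mean were most like the mean deviation of the 10 genes, over 24 libraries and 15668 loci, were Nfil3 (Pearson r = 0.863), Sik1 (0.843), the locus named Mir132,Mir212 (0.831), Plk3 (0.818) and Phf13 (0.799). Nfil3 encodes a basic leucine zipper repressor, Sik1 a kinase that is itself induced by cAMP signalling, Plk3 a kinase of the Plk2 family and Phf13 a reader of histone methylation. Mir132 and Mir212 are neighbouring microRNA genes known as targets of CREB. The libraries were made from polyadenylated RNA, so the value of this locus is that of a longer transcript and not of the mature microRNAs. The main mature products of both genes are given because they share their seed, bases 2 to 8, shown in capitals (RefSeq, GRCr8).
rno-miR-132-3p: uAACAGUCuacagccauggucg
rno-miR-212-3p: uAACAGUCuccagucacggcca
The likeness was closer in cortex than in thalamus for this locus (r = 0.973 and 0.482) and higher in thalamus for Plk3 (0.793 in cortex and 0.913 in thalamus) and Phf13 (0.781 and 0.897).

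Locus positions follow the deposited annotation. It names no build, and the study's methods name an older assembly for the genome than Rnor_5.0, which the submitters' processing notes give, so the build of these positions is not settled. Fos lies on chromosome 6 from 116249134 to 116252608, Fosb on chromosome 1 from 81480956 to 81488117, Junb on chromosome 19 from 37069074 to 37070109, Egr4 on chromosome 4 from 181870040 to 181872503, Arc on chromosome 7 from 115812496 to 115815952, Egr2 on chromosome 20 from 24551938 to 24556227, Egr1 on chromosome 18 from 27369165 to 27372951, Npas4 on chromosome 1 from 227191341 to 227196928, Nr4a1 on chromosome 7 from 140704501 to 140721074 and Plk2 on chromosome 2 from 60970299 to 60976058. Each interval is the whole gene locus, as counts were made per gene.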

How the data were processed

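Stranded libraries of polyadenylated RNA were sequenced. The authors mapped reads with TopHat2 2.0.11 and Bowtie2 2.2.2 and, per the labels, used Cufflinks 2.2.1 and Cuffdiff. The deposited signal values are fragment counts per locus scaled by Cuffdiff for library depth, and replicates were not pooled. Low values stepped by the worth of 1 fragment (100% of low values came out whole within 0.1), from which depth and the floor of 3 fragments were taken. They cover counting error only.

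Groups and rat numbers came from the sample labels. Loci without a gene name (37.1% of loci) were left out of the tests. limma 3.58.1 in R 4.3.3 was fitted to log2(normalized count + 1), with a mean trend and Benjamini-Hochberg adjustment over loci with a mean of at least 10. The scale understates changes of low genes. Rats are the replicates. Interaction and region contrasts were fitted without the rat as a block. Pairing was given by the shared rat numbers: deviations from the group means in both regions correlated with a median of 0.187 (0.00393 to 0.569), over 0.1 in 10 of 12 rats. In 8 of 12 rats the cortical library correlated more with its own thalamic library than with that of any other rat of the same injury group. edgeR 4.0.16 on recovered fragments called 4435 loci in cortex, 5122 in thalamus and 1090 for the difference. The steps were tested on simulated data.

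All 10 members were named, from each list the 2 largest rises and falls among called genes, and the 5 loci most like the members. Named outside this rule are Bdnf, Creb1, Srf and the Mir132 and Mir212 sequences. Members and lists were chosen with earlier results of these data known. CREM, CAMK2A and PPP3CA were matched ignoring case, and Gpr3 and Neurod2 were not matched.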

Additional observations from a re-analysis of the deposited data

Results flagged for a closer look

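In 4 of 40 groups of 6 libraries, 1 library stood apart from the other 5 by a gap that chance gives in about 5% of groups, so that 2 were to be looked for by chance. The sham cortex library of rat 32 had 2529.1 normalized counts of Arc, with the next library at 8793. The TBI thalamus library of rat 52 had 403.8 of Junb, with the next at 242, and 25.4 of Egr4, with the next at 11.3. The TBI thalamus library of rat 45 had 1118.7 of Plk2, with the next at 763.

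The TBI effect differed between the regions for Egr2, by 2.3471 on the log2 scale over 24 libraries, in limma but not in edgeR (adjusted p = 0.0657) or without the sham thalamus library of rat 55 (adjusted p = 0.0526). For Fos the difference was 0.5938 on the same scale and passed only in the within-rat fit, which was chosen after the data had been seen.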

How the results depend on the processing

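The alternatives were other scalings (TMM, upper quartile), other filters and pseudocounts, all 24 libraries in 1 fit, the rat as a block, edgeR, and leaving out each library in turn. For single genes, 1085 of the recomputed values kept direction and side of the threshold, 12 passed it anew, 9 no longer passed and 22 changed sign. Leaving out 1 library gave 2 to 7 genes called in cortex, 2 to 6 in thalamus and 0 to 1 for the difference between regions. With the rat as a replicate block, through within-rat differences, 2 genes were called for that difference, and with edgeR 0 were called (1 at an unadjusted p under 0.05). The block changed no other call than those of Fos given above, and with the block estimated as a correlation (0.135) Egr2 alone was called.

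Values close to 0 changed sign. Across the left-out libraries Fosb in cortex ran from -0.058 to 0.135, Fos in thalamus from -0.263 to 0.204, Plk2 in thalamus from -0.032 to 0.178, the regional difference from -0.242 to 0.221 for Nr4a1 and from -0.599 to 0.028 for Arc, and Fos in thalamus against cortex of sham rats from -0.559 to 0.0023. With edgeR the regional difference of Nr4a1 was 0.050. None of these passed the test, and the cause was not tested.

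In cortex, Arc passed with all 24 libraries in 1 fit (adjusted p = 0.0449, limma) and Plk2 did not (0.164). A minimum mean of 50 took Egr2 and Egr4 out of the thalamic test, and depth limits both genes there. Region differences of the 9 genes other than Fos passed under every alternative run.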
